A study of Brassica oleracea var. italica with 2 samples.

Results

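Nuclear genes that an Arabidopsis array names by locus code alone, and whose signal was 2-fold or more higher in broccoli seedlings with an antisense BoEMF2.1 construct than in seedlings with an empty vector, are described here. The array holds 22810 probe sets, each a group of short probes for a transcript, and 11933 of them are annotated with a single locus code such as AT4G19200. Of these, 4191 are called measured, since each array gave them a signal over its floor. The floor was the median of the 22746 probe sets that are not controls, 317.6 for the vector and 302.7 for the antisense sample. Members were selected on the ratio of antisense to vector signal, which had to be 2 or more. There were 120 such probe sets. Those for AT4G01700 and AT2G43620 were left out with 4 other loci that the rule excludes, which gave 118 members for 118 different loci. The other 4 excluded loci did not meet the thresholds. The same signals chose the members, so their folds are a description and were not tested.

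Both samples were whole 11-day-old seedlings of broccoli (Brassica oleracea var. italica, cultivar Elegance), grown on agar plates with sucrose in days of 16 h light. The vector sample carried pCAMBIA1380 in a wild type background. The antisense sample carried 35S::antisenseBoEMF2.1, although its genotype label gives the construct as 35S::BoEMF2.1, so that the direction of the construct rests on its title and source name. The 35S promoter of cauliflower mosaic virus is active in most plant tissues. The labels used here do not say how many plants or transgenic lines went into a sample. With 1 array per group there is no replicate error and no test of the genotypes, and "higher" and "lower" compare these 2 arrays.

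EMF2 of Arabidopsis is a subunit of a Polycomb group complex, which places a repressive methyl mark on histone H3 and keeps flower and embryo programmes silent in seedlings. The annotation names no probe set for EMF2, so the targeted transcript was not analysed here. Broccoli belongs to the same plant family as Arabidopsis, and its genome often holds several copies of an Arabidopsis gene. A signal here is therefore the sum of whatever broccoli transcripts bind the Arabidopsis probes, and a low signal can reflect mismatched sequence as well as low expression. The annotation gives these genes no name and no function. The roles below are background knowledge of the Arabidopsis genes, were assigned after the members were known, and cover 98 of the 118 members. Genes without a clause on their role have none given here.

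The highest folds lay in 8 genes, and those given a role here came from different families. AT4G19200, which encodes a proline-rich protein, gave a signal of 436.9 with the vector and 3582 with the antisense construct, 8.20-fold higher. AT5G60800, for a protein with a heavy metal-associated domain, had 501.9 and 3247.8, 6.47-fold higher. These 2 genes stood apart from the others, since no other member passed 4.31-fold. AT1G76590, a member of the PLATZ family of zinc-binding transcription factors, had 423.2 and 1824.2, 4.31-fold higher. AT3G52360 had 608.6 and 2527.9, 4.15-fold higher. AT3G15810, for a LURP-one-related protein, had 584.8 and 2304.3, 3.94-fold higher. All 5 had vector signals below 660.5, the median of the measured locus-named probe sets, and antisense signals of 1824.2 or more.

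The next 3 completed the members at 3-fold or more. AT1G56060, for a small protein with a cysteine-rich transmembrane module, had 452.7 with the vector and 1628.2 with the antisense construct, 3.60-fold higher. AT5G49540, for a Rab5-interacting family protein, had 773.5 and 2699.1, 3.49-fold higher. AT1G51110, for a fibrillin of plastid lipid bodies, had 1483.9 and 4512.9, 3.04-fold higher. The other 110 members lay under 3-fold. The median member was 2.27-fold higher, the middle 50% of members lay between 2.0995-fold and 2.53-fold, and most members thus lay close to the threshold that selected them.

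**Figure D1:**
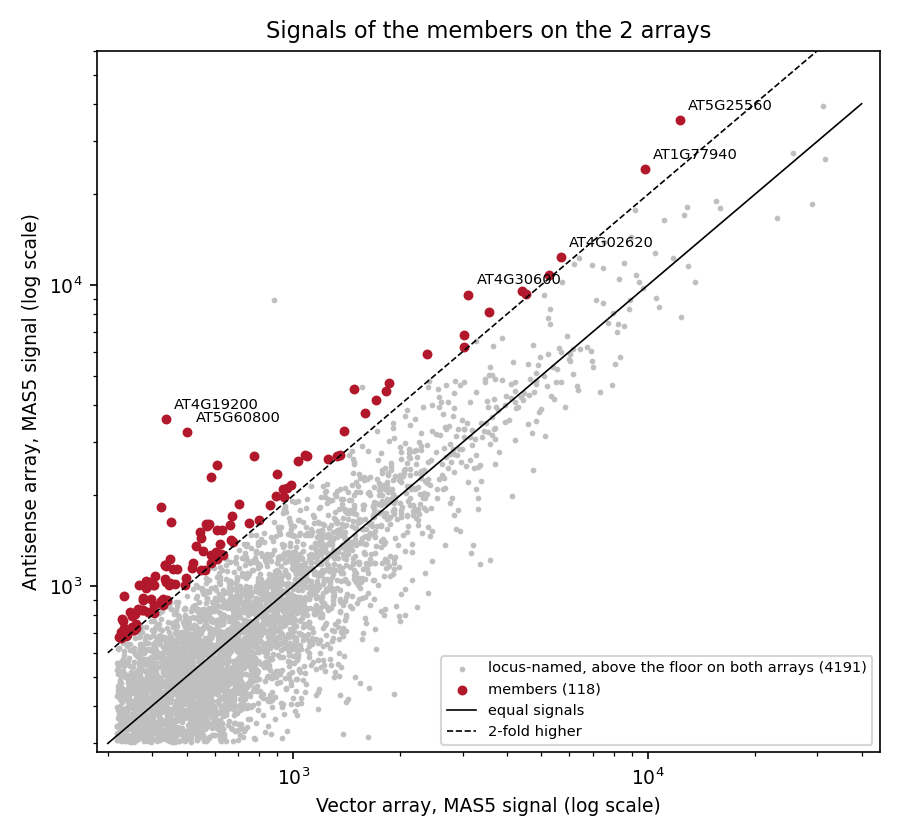
Each point is a measured probe set named by a locus code, with its MAS5 signal on the vector array (x axis) and on the antisense array (y axis), both on log scales; red points are the 118 members, and the lines mark equal signals and a 2-fold higher antisense signal. AT4G19200 and AT5G60800 lie well above the 2-fold line, and AT5G25560 and AT1G77940 are the brightest members. The 2 grey points above the 2-fold line are the excluded genes AT2G43620 and AT4G01700.

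The threshold fell in a dense part of the distribution. The 6 members just inside it were AT2G31110, AT5G58110, AT2G39400, AT1G62760, AT1G20370 and AT2G14450, from 2.015-fold down to 2.002-fold higher. The 6 locus-named genes just outside it were AT4G05060, AT3G18280, AT2G37110, AT1G13030, AT1G53060 and AT5G61330, from 1.998-fold down to 1.966-fold higher. AT2G14450, the last gene inside, had signals of 355.8 and 712.4, and AT4G05060, the first outside, had 580.9 and 1160.8. The threshold therefore parts genes with nearly the same fold.

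Of the measured locus-named probe sets, 2.86% were 2-fold or more higher before the exclusions (120 of 4191), and 2.82% were 2-fold or more lower (118 of 4191). Over all 9382 measured probe sets that are not controls, 3.02% were 2-fold or more higher and 3.51% lower. In the deposited signals the share of locus-named genes that were 2-fold or more higher was thus near that of all probe sets, and near the share that were lower. The balance of higher and lower depends on the scaling. Without the excluded loci it was 118 higher and 118 lower in the deposited signals, 142 and 86 with centring on the array medians, and 56 and 223 with scaling to the hybridization controls. The median fold over all 4191 was 0.980, and 47% had a higher antisense signal (32% under scaling to the hybridization controls). The SD of a single log2 ratio, estimated from 31 genes with 2 measured probe sets each, was 0.44. The 2-fold threshold is 1 on that scale. This SD covers differences between probe sets within these arrays and not variation between plants.

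A second probe set gives a reading of the same gene that the rule did not use for these members. It exists for 4 of the 118 members. For AT5G54130, the member probe set had 377.3 with the vector and 830.6 with the antisense construct, 2.20-fold higher, and the second had 334.2 and 589.2, 1.76-fold higher. For AT2G31110, of the trichome birefringence-like family, which acetylates wall polysaccharides, the member probe set had 1352.7 and 2726.3, 2.02-fold higher. Its second probe set had 1367 and 701.7, a fold of 0.513, so that the probe sets of this gene started from like signals and went opposite ways. The second probe sets of AT1G51110 (170.9 and 105.5) and AT1G62760 (164.1 and 48.9) were below the floor on both arrays, where no fold was taken, and their signals were lower on the antisense array. In all, 1 of the 4 second probe sets had a higher antisense signal, and 0 of 4 passed 2-fold.

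Across locus-named genes as a whole, 25 had exactly 2 measured probe sets. The log2 ratios of the 2 probe sets had the same sign for 14 of the 25, with a median difference of 0.32. The widest difference, 1.97, was that of AT2G31110. Of these 25 genes, 2 had a probe set that was 2-fold or more higher, both of them members, and 0 had both probe sets past that threshold. For 114 members the array gives 1 probe set, and no second reading was possible.

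Genes of transport and ion binding, 6 members, had a median fold of 2.53. Next to AT5G60800, AT5G19090, a second heavy metal-associated domain gene, had 396 with the vector and 908.7 with the antisense construct, 2.29-fold higher. Proteins with this domain bind metal ions, and many carry a lipid anchor. AT2G03260, of the PHO1 family of phosphate exporters, had 567.3 and 1603.9, 2.83-fold higher. AT2G21120, a putative magnesium transporter, had 546.7 and 1514.9, 2.77-fold higher. The vector signals of these 4 lay between 396 and 567.3, whereas AT4G02620, for subunit F of the proton pump of the vacuole, was among the brightest members, with 5682.5 and 12356.3, 2.17-fold higher. AT3G59020, for an importin-like protein, was 2.20-fold higher.

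Genes of the secretory pathway, 8 members, had a median fold of 2.505 and covered steps from the endoplasmic reticulum to the vacuole. AT4G30600, for the alpha subunit of the receptor that docks ribosomes with secretory cargo at the endoplasmic reticulum, had 3115.6 with the vector and 9270.7 with the antisense construct, 2.98-fold higher. AT4G14160, for a SEC23-type coat protein of the vesicles that leave the endoplasmic reticulum, had 900.6 and 2363.2, 2.62-fold higher. AT3G10260, for a reticulon, which curves the membrane of endoplasmic reticulum tubules, had 1820.3 and 4458.5, 2.45-fold higher. With AT5G49540, these 4 were above the median vector signal of locus-named genes. AT1G22860, for a vacuolar sorting protein, was 2.56-fold higher from a lower vector signal of 384.3. The remaining members were AT3G12180, for a cornichon-type cargo receptor (2.22-fold), AT4G29950, for a GTPase-activating protein of Rab GTPases (2.08-fold), and AT4G26550, for a Got1/Sft2-like vesicle protein (2.05-fold). The pathway's other genes were not listed, so the counts do not say what share of the pathway was higher.

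Genes grouped under cell wall and glycosylation, 9 members, had a median fold of 2.49. The highest fold was that of AT4G19200, which was put here by hand as a proline-rich protein. Whether its protein lies in the wall was not tested. AT5G14650, for a polygalacturonase-type protein that cuts pectin, a polysaccharide of the primary wall, had 385.1 with the vector and 1042.3 with the antisense construct, 2.71-fold higher. AT3G49720, for a Golgi protein that acts in adding methyl groups to pectin, had 609.6 and 1532.9, 2.51-fold higher. AT1G62760, for a protein of the pectin methylesterase inhibitor family, had 634.6 and 1271 and lay at the threshold. Proteins of this family inhibit pectin methylesterases or invertases. AT1G20270, for a prolyl 4-hydroxylase, which prepares wall proteins for glycosylation, was 2.49-fold higher. AT5G06630, for an extensin-like wall protein, was 2.099-fold higher (940.5 and 1973.7). Its probe set is the only 1 of the 118 with a suffix (_x_at) that marks probes shared with other sequences, so related extensin genes could contribute to its signal. AT1G53770, an O-fucosyltransferase gene, and AT4G01210, a glycosyltransferase gene, were 2.70-fold and 2.44-fold higher.

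Genes of protein folding, modification and breakdown formed a group of 16 members with a median fold of 2.253, none of which reached 3-fold. AT5G25560, for a zinc finger protein with CHY-type and RING-type domains, was the brightest member of all, with 12297.8 with the vector and 35295.4 with the antisense construct, 2.87-fold higher. RING domains are found in many ubiquitin ligases, which mark proteins for breakdown. The other RING or U-box genes were dim, with AT2G41980 (SINA-type) 2.36-fold, AT3G61390 (U-box) 2.29-fold, AT1G19310 2.15-fold, AT5G01980 2.14-fold and AT1G68070 2.102-fold higher, from vector signals of 326.5 to 603.9. Peptidase genes were AT5G13520 (M1 family, 2.78-fold), AT3G57470 (insulinase type, 2.55-fold) and AT4G01610 (cathepsin B-like), the last with 1390.6 and 3277.5, 2.36-fold higher. Genes for inhibitors of peptidases were members too, AT1G71950 at 2.79-fold and the Kazal-type AT3G61980 at 2.17-fold. Chaperone genes were AT1G21080 (DnaJ domain, 2.53-fold), AT5G07340 (a calnexin, which folds glycoproteins in the endoplasmic reticulum, 2.22-fold) and AT5G58110, at the threshold. AT2G41760, for an amidohydrolase that acts on amino-terminal glutamine, and AT1G03150, for an N-acetyltransferase, were 2.21-fold and 2.20-fold higher.

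Genes of metabolism, mitochondria and plastids were the largest group, 22 members with a median fold of 2.36. Several encode mitochondrial proteins. AT5G55070, for the E2 subunit of 2-oxoglutarate dehydrogenase in the citric acid cycle, had 1710.1 with the vector and 4163.1 with the antisense construct, 2.43-fold higher. AT3G08610, for a small subunit of respiratory complex I, had 4539.5 and 9322.8, 2.05-fold higher. AT1G19140, for a COQ9-type protein of ubiquinone synthesis, had 394.1 and 1034.5, 2.62-fold higher. Both Arabidopsis genes of a pair of twin CX9C proteins of mitochondria were members despite unlike signals: AT5G64400 had 5267.7 and 10825.6, 2.06-fold higher, and AT5G09570 had 499.6 and 1061.5, 2.12-fold higher.

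Other enzymes of this group came from separate pathways. AT5G12040, for an omega-amidase, had 705.2 with the vector and 1876.9 with the antisense construct, 2.66-fold higher. AT4G02860, for a PhzF-type protein, was bright, with 2379.5 and 5887.4, 2.47-fold higher. AT5G18600, for a CC-type glutaredoxin, a class of small redox proteins found in land plants, had 3026 and 6796.1, 2.246-fold higher. All 3 had vector signals above the group's median of 602.5. AT4G22530 and AT1G77260, for methyltransferases, were 2.78-fold and 2.05-fold higher. AT1G64680, for a protein like the carotenoid isomerase DWARF27, was 2.44-fold, AT5G03430, for a PAPS reductase-type protein, 2.36-fold, and AT4G05160, for a CoA ligase, 2.03-fold higher. The remaining 8 were AT2G22530, for an alkaline phosphatase-like protein, at 2.75-fold, AT2G32520, of the dienelactone hydrolase family, at 2.53-fold, AT1G10310, a pterin aldehyde reductase gene, at 2.36-fold, AT4G09520, of the phosphoglycerate mutase family, at 2.35-fold, AT3G51000 and AT2G39400, for alpha/beta hydrolases, at 2.32-fold and 2.005-fold, AT2G32030, for an acetyltransferase, at 2.095-fold, and AT4G38540, for a flavin monooxygenase-type protein, at 2.06-fold.

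Genes of gene expression, 10 members, were led by the PLATZ gene AT1G76590 and had a median fold of 2.21. AT1G77940, for the cytosolic ribosomal protein L30, had 9780.5 with the vector and 24268.5 with the antisense construct, 2.48-fold higher. AT2G20450, for the cytosolic ribosomal protein L14, was far dimmer, with 471.1 and 1138, 2.42-fold higher. AT5G53070 (L9 family, 2.28-fold) and AT1G16740 (L20 family, 2.06-fold) belong to ribosomal protein families of bacterial and organelle ribosomes. AT4G02940, for an ALKBH-type RNA demethylase whose loss delays flowering in Arabidopsis, had 404.7 and 865.4, 2.14-fold higher. Its signals were near the floor on the vector array. Chromatin and transcription were represented by AT2G18090, with a PHD finger (2.37-fold), and AT2G31730, a basic helix-loop-helix protein gene (2.04-fold). The RNA processing genes AT1G28060, a splicing factor, and AT1G20370, a pseudouridine synthase, lay at 2.02-fold and 2.002-fold.

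Signalling genes, 11 members, had a median fold of 2.26 and a highest fold of 2.54. AT1G34750 and AT2G25070, both for protein phosphatases of type 2C, had 1862.6 and 3570.1 on the vector array. Their antisense signals were 4739 and 8142.5, 2.54-fold and 2.28-fold higher. AT5G05200, for an ABC1-type atypical kinase, was 2.53-fold higher (1077.8 and 2731.6). Receptor-like kinase genes were AT1G11330, with an S-locus lectin domain (2.48-fold), AT1G34420, with leucine-rich repeats (2.26-fold), and AT1G25390 (2.05-fold), all from vector signals of 626 or less. AT5G21090, for a leucine-rich repeat protein, was bright, at 4416.4 and 9569.3, 2.17-fold higher. Calcium-binding EF-hand proteins were represented by AT5G44090 and AT1G18210, 2.27-fold and 2.23-fold higher. The kinase gene AT1G54610 and the C2-domain gene AT4G00700 were 2.17-fold and 2.08-fold higher.

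Of the 16 members in other domain families, AT3G15810 and AT1G56060 passed 3-fold and are described above, and the median was 2.17-fold. AT4G33660, a second gene with a cysteine-rich transmembrane module, had 388.2 with the vector and 822 with the antisense construct, 2.12-fold higher. AT4G26410, whose transcript has served as a reference for quantitative PCR in Arabidopsis, had 661.5 and 1599.2, 2.42-fold higher. AT3G51050, for an FG-GAP repeat protein, and AT5G43460, for an HR-like lesion-inducing protein, were 2.73-fold and 2.64-fold higher. The other 10 went from AT5G54170, for a START-domain lipid-binding protein, at 2.42-fold, to AT2G44770, of the ELMO family, at 2.016-fold. Between them lay AT4G11800 (a metallophosphoesterase), AT2G05590 (TLDc domain), AT5G43830 (aluminium-induced family), AT2G45010 (PLAC8 family), AT3G02710 (ARM repeats), AT1G22930 (T-complex family), AT5G11970 (a family of unknown function) and AT5G50140 (ankyrin repeats). The 20 members with no role given had a median fold of 2.22 and ranged from AT2G14450, at 2.002-fold, to AT3G52360, at 4.15-fold. After it, AT1G28240 was 2.69-fold, AT5G18130 2.66-fold, AT5G19720 2.64-fold and AT1G19380 2.501-fold higher, and the brightest was AT1G18470, at 3025.5 and 6210.2. The others, next to AT5G54130, were AT1G25275, at 2.47-fold, AT1G15010, AT4G12070, AT5G14710, AT5G28150, AT3G50685, AT4G16060, AT4G28740, AT1G48330, AT1G66940, AT3G29796 and, at 2.02-fold, AT2G10020.

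**Figure D2:**
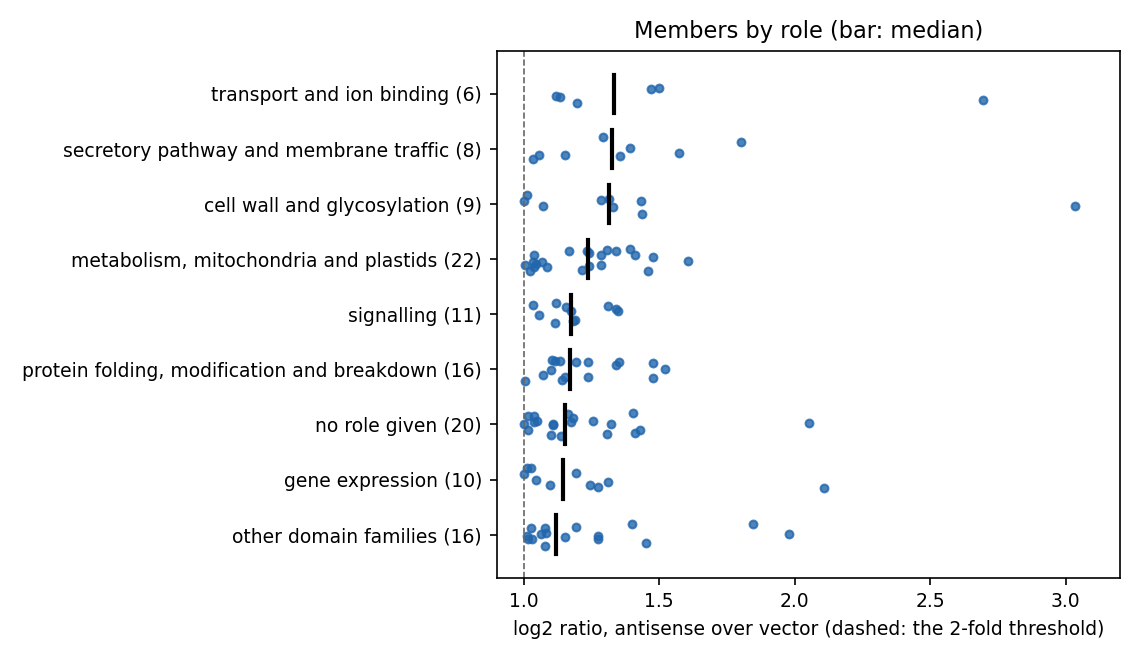
Each point is 1 member, placed by its log2 ratio of antisense over vector signal (x axis) in its role group (y axis, number of members in brackets); bars are group medians and the dashed line is the 2-fold threshold. The group medians lie between 1.12 and 1.33, and the widest ratios, 3.04 for AT4G19200 and 2.69 for AT5G60800, are single genes of their groups.

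The medians of the role groups lay between 2.17-fold and 2.53-fold, and the lowest fold of a group between 2.002-fold and 2.174-fold. The rule holds every member at 2-fold or more, and most members lay close to that threshold. The likeness of the groups is thus in part set by the selection and is no result about the roles. The groups were formed by hand from members alone and carry no count of the genes that could have entered, so their sizes say nothing of enrichment.

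Families of the leading genes were listed to see whether their other genes had like ratios. The 4 lists, of heavy metal-associated domain, PLATZ, LURP-one-related and cysteine-rich transmembrane module genes, held 80 loci. Of these, 44 had a probe set annotated with their locus code alone, and 22 probe sets were measured. Relatives given here and below are those annotated by a locus code alone, so a family may hold further genes. Of these 22, 6 were 2-fold or more higher, the 6 members already given, and 1 was 2-fold or more lower. That the members pass is the rule's doing. Of the 16 others, 12 had a higher signal on the antisense array, or 8 under scaling to the hybridization controls. The share over all measured locus-named probe sets was 47%, or 32% under scaling to the hybridization controls. The leading genes were known when the lists were made.

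The families differed in how near the other genes came. The 5 other LURP-one-related genes had log2 ratios from 0.17 to 0.73, with a median of 0.46, so that all 6 measured locus-named genes of the family were higher on the antisense array. AT2G05910 had 318.2 with the vector, just over the floor of 317.6, and 526.8 with the antisense construct. AT2G30270 had 661.7 and 1039.8. Another gene, AT3G11740, was below the floor on the vector array, at 75.2, and had 472.1 on the antisense array. AT2G38640 was below the floor on both arrays, with the lower signal on the antisense array (296.6 and 275.4). Among the 4 other PLATZ genes, log2 ratios ran from -0.54 (AT5G46710, 468.2 and 322.3) to 0.89 (AT1G32700, 1028.7 and 1912). The brightest PLATZ gene, AT4G17900, had 5621.2 and 6166.7, a log2 ratio of 0.13. The 5 other measured heavy metal-associated domain genes ran from -1.34 (AT3G48970, 1027 and 405.2) to 0.35, with a median of 0.07. The family thus held genes past 2-fold in both directions. AT2G36950 (731.6 and 197.1) and AT2G28090 (358.1 and 156.1) were above the floor on the vector array alone. A probe set of AT5G50740 (179.9 and 528), AT5G24580 (270.4 and 306.2) and AT1G56210 (300.8 and 314) were above it on the antisense array alone. Of the cysteine-rich transmembrane module genes, AT1G67870 was above the floor on the antisense array alone (295.8 and 512.1). AT3G22240 was by far the brightest of that family, with 6324.3 and 4619, a log2 ratio of -0.45, and AT2G33520 stood at 0.23. Under scaling to the hybridization controls these log2 ratios are all lower by 0.19, which takes AT1G33840, the LURP-one-related gene at 0.17, AT4G17900, and the heavy metal-associated domain genes AT3G06130 and AT3G05220, at 0.07 and 0.11, below 0.

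Close relatives in 13 further families, listed after the members were known, gave 20 measured probe sets. Of these, 12 had a higher signal on the antisense array (10 under scaling to the hybridization controls) and 0 were 2-fold or more either way. Of all measured locus-named probe sets, 47% had a higher antisense signal, or 32% under that scaling. The median log2 ratio of the measured relatives was 0.17, against -0.03 for all measured locus-named probe sets. Relatives below the floor on an array are not in these counts. Among those above it on the vector array alone were the putative magnesium transporter genes AT4G13800 (382.8 and 37.4), AT1G71900 (517.4 and 250.4) and AT4G09640 (407.5 and 299.4). The SEC23-type gene AT2G21630 (365.9 and 219) was another. Those above it on the antisense array alone included AT4G15700 (109.5 and 411.1), AT1G48980 (219.8 and 450.8) and AT1G34470 (232.9 and 330.7). For some members the relative went the other way. AT4G27090, the second gene for ribosomal protein L14, had 7925.8 with the vector and 4664.9 with the antisense construct, a log2 ratio of -0.76, against 1.27 for AT2G20450. AT4G26910, the second gene for the E2 subunit of 2-oxoglutarate dehydrogenase, had 542.8 and 315.6, a log2 ratio of -0.78, against 1.28 for AT5G55070. In both pairs the genes for the same protein went opposite ways.

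In other families most or all of the measured relatives were higher without passing the threshold. Of the PHO1 family, 3 of 4 other measured genes had log2 ratios from 0.36 to 0.66, while AT1G69480 stood at -0.95 (821.2 and 426.2). Of the SEC23-type genes, AT5G43670 and AT2G27460 stood at 0.54 and 0.47 and AT1G05520 at -0.07. The glutaredoxin gene AT4G15680 stood at 0.82 (683.8 and 1207.8), next to 1.17 for AT5G18600. AT1G36240, the second gene for ribosomal protein L30, stood at 0.25 (873.5 and 1040.8). In the remaining families the relatives went both ways. The 2 measured ALKBH relatives, AT2G17970 and AT2G48080, stood at 0.26 and -0.52. The 2 other measured putative magnesium transporter genes, AT3G26670 and AT3G23870, stood at 0.07 and -0.35. The 2 cathepsin B-like genes AT1G02305 and AT1G02300 stood at 0.29 and -0.55. The 3 SINA-type relatives ran from -0.13 (AT3G61790) to 0.58 (AT4G27880) with a median of 0.08. Near relatives can share probes or broccoli transcripts, and the part this plays in like ratios was not tested.

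**Figure D3:**
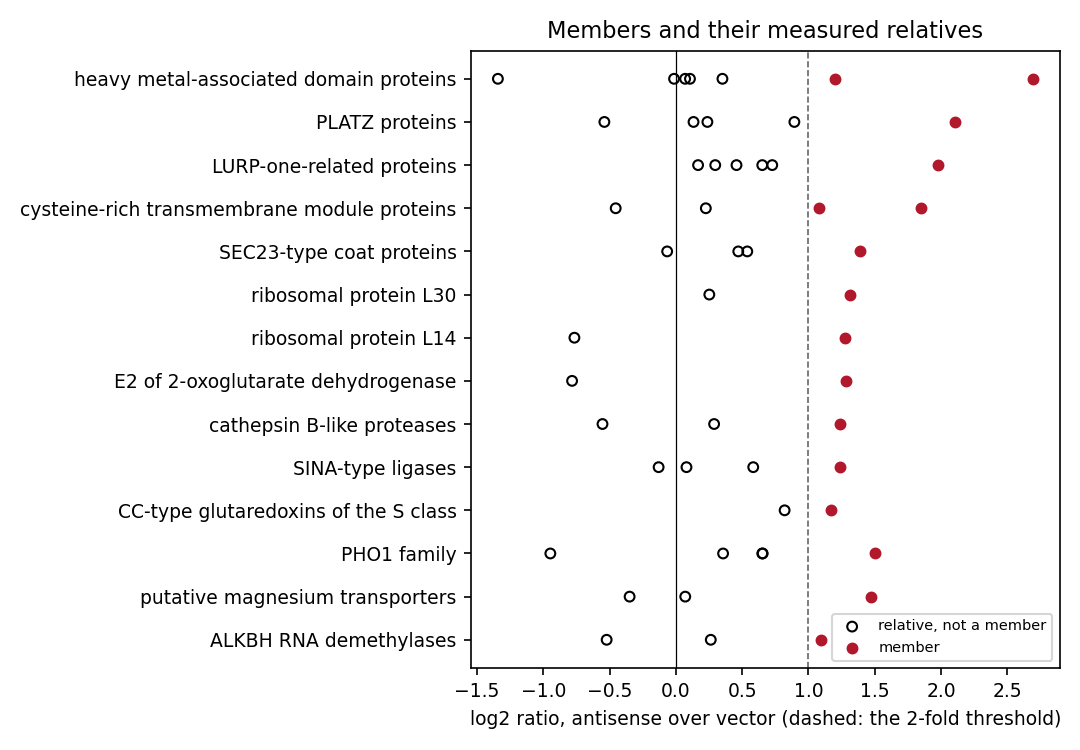
Each row is a gene family, and each point a measured probe set, placed by its log2 ratio of antisense over vector signal; filled points are members, open points relatives that are not members, and the dashed line is the 2-fold threshold. The open points of the LURP-one-related family all lie above 0, while those of ribosomal protein L14 and of the E2 subunit lie at -0.76 and -0.78.

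The brightness of a gene bore on whether it could become a member. The vector signals of the members had a median of 526.1, against 660.5 for all measured locus-named probe sets, and their antisense signals a median of 1247.75, against 639.1. Of the members, 54 (45.8%) had a vector signal less than 1.5 times the floor, against 24.6% of all measured locus-named probe sets. Selection on the ratio favours a low vector and a high antisense signal, so the rule itself contributes to these differences. When the 4191 probe sets were put in 4 equal groups by their mean log2 signal, 0.286% of the dimmest group were 2-fold or more higher, since 2 signals near the floor cannot differ by much without one falling below it. The shares in the other groups, from dim to bright, were 3.44%, 3.63% and 4.1%, and the median log2 ratio went from -0.09 in the dimmest group to 0.05 in the brightest. The shares that were 2-fold or more lower were 1.15%, 3.06%, 4.68% and 2.39%.

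The floor also kept genes out. A further 1038 locus-named probe sets were below the floor on the vector array and above it on the antisense array, and 71 of these had an antisense signal of at least 2 times the vector floor, 2 of them for excluded loci. They have only a lower bound for their fold and are not members. Another 1080 were above the floor on the vector array alone, and 5624 on neither.

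By the Arabidopsis chromosome in the locus code, 34 members (28.8%) lay on chromosome 1, 18 on chromosome 2, 15 on chromosome 3, 21 on chromosome 4 and 30 on chromosome 5. Of the measured locus-named probe sets of each chromosome, 3.11%, 2.89%, 1.78%, 3.52% and 2.89% were members. Chromosome 3 held 20.1% of the measured probe sets and 12.7% of the members, a difference that was not tested. Locus numbers follow gene order along an Arabidopsis chromosome, and 16 members (13.6%) lay within 100 in locus number of another member. Among locus-named genes that were 2-fold or more lower, 15.4% lay that close to another of them. The closest members were AT5G54130 and AT5G54170, with no measured gene between them. In the 8 such pairs, 11 other measured genes lay between the members, with folds from 0.475 to 1.78 and a median of 1.02, and 7 of the 11 had a higher antisense signal as deposited. Between AT5G11970 and AT5G12040 the 3 measured genes had folds from 1.13 to 1.73 in the deposited signals, while the gene between AT3G51000 and AT3G51050 had a fold of 0.475. Gene order in broccoli was not used here.

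Markers of root and green tissue were present on both arrays. The 3 root marker genes (EXPA7, EXPA18 and PYK10) had a summed signal of 2835.3 with the vector and 4097.2 with the antisense construct. EXPA7, an expansin of root hairs, was 3.09-fold and EXPA18 1.74-fold higher, while PYK10, a root beta-glucosidase, had a fold of 0.735. The 5 matched green tissue markers of 7 listed (PSAN, LHCB4.1, RCA, PRK and PORB) had a summed signal of 38474.7 and 28082.7, with 2 genes higher and 3 lower. PSAN, a photosystem I subunit gene, had 13222.1 and 4622.5, the widest gap of the 5, and PORB, of chlorophyll synthesis, had 8853.8 and 4541.1. LHCB4.1 had 7503.7 and 7226.8, PRK 4743.6 and 5242.2, and RCA 4151.5 and 6450.1. The part of tissue makeup in the members' folds was not tested, and more cells of a type and more RNA per cell cannot be told apart in whole seedlings.

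The scaling of the arrays set how many members stayed past 2-fold. The deposited signals have a common trimmed mean, and the 18 hybridization controls, which are bacterial and phage transcripts added to each hybridization, had a median log2 ratio of 0.19. The single controls ran from -0.19 to 0.56. With their median set to 0, 56 of the 118 members were 2-fold or more higher, all 118 still had a higher antisense signal, and the lowest fold was 1.75. The same scaling gave 223 locus-named probe sets 2-fold or more lower, against 118 without it. With quantile and with loess normalization 113 members stayed past 2-fold, and with centring on the array medians all 118. The mitochondrial genes AT5G64400 and AT3G08610, with AT1G18470, AT4G05160 and AT2G31110, fell below it under both quantile and loess normalization. Their folds were then 1.928 to 1.949. The 56 genes that passed under all 4 scalings were those from AT4G19200 down to AT4G11800, at 2.29-fold in the deposited signals.

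**Figure D4:**
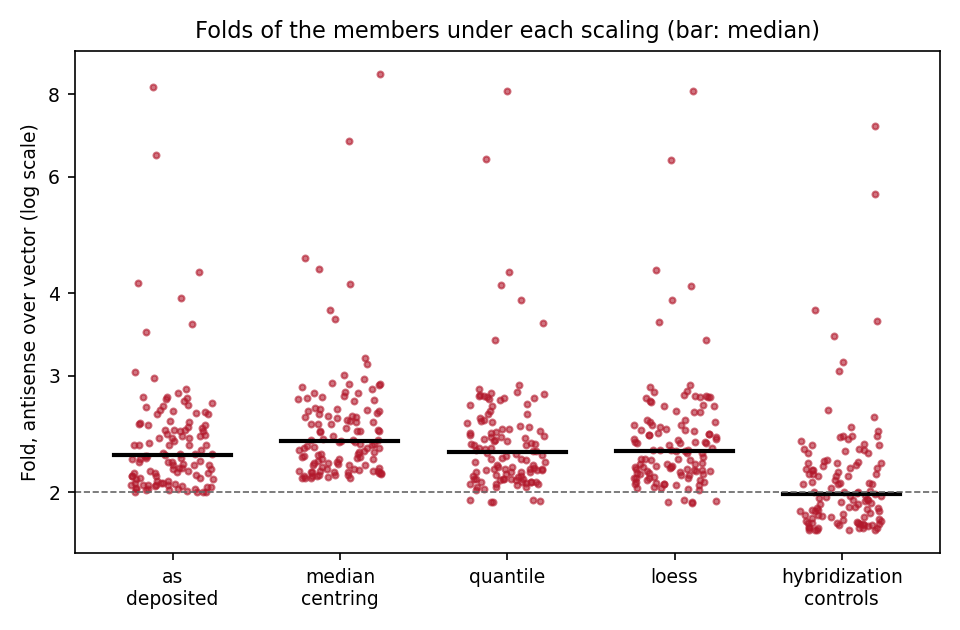
Each point is 1 of the 118 members, with its fold of antisense over vector signal (y axis, log scale) in the deposited signals and under 4 other scalings of the arrays (x axis); bars are medians and the dashed line marks 2-fold. Under scaling to the hybridization controls 56 members lie at or above the line and all lie above 1.75-fold.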

How the data were processed

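Signals of 2 arrays were used, 1 of vector and 1 of antisense seedlings, grouped by the sample titles. The authors deposited a linear intensity for each probe set, made with MAS5 per the submitters' processing notes (version not given in the sources used here). Trimmed means, with 2% left out at each end, were 500.035 and 500.036, so the arrays share a scaling.

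Genes came from an annotation table of the platform. Ratios were antisense over vector signal, with no pseudocount, for probe sets over each array's non-control median. With 1 sample per group no test was made, and the number of arrays limits the precision. Every member could be named. The 12 highest ratios, the 6 brightest, 6 genes on each side of the threshold, members with a second probe set and the families of leading genes were to be given in full. Members and lists were chosen with earlier results of these data known. Grouping by gene titles had been planned, but the tables hold none, so roles were assigned by hand.

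Alternatives were 4 scalings (median centring, quantile, loess with a span of 0.4 and hybridization controls), no floor or one at the 25th or 75th percentile, thresholds of 1.5-fold and 3-fold, a pseudocount, and the choice of probe sets. The code for the count was run on simulated arrays with known shifts. The shifts were well past 2-fold and lay in genes well above the floor, so genes near either limit were not covered. Python 3.11.15 was used with pandas 2.3.3, numpy 2.4.6, statsmodels 0.14.6, scipy 1.17.1 and matplotlib 3.10.9.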

Additional observations from a re-analysis of the deposited data

How the results depend on the processing

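No paired analysis was possible because there was 1 array for each genotype, which also left none to leave out. Counts of 1.5-fold members by role were not run, since roles were assigned to members alone. The 118 members (2.82% of 4188 measured locus-named probe sets without the excluded loci) became 56 (1.34%) with hybridization-control scaling and 76 (1.81%) with a pseudocount. By construction they became 556 (7.55%) and 38 (2.18%) with floors at the 25th and 75th percentile, 1778 (14.9%) with no floor, 458 (10.9%) at 1.5-fold and 8 (0.191%) at 3-fold. Median centring gave 142 (3.39%) higher and 86 lower, against 118 and 118 in the deposited signals and 56 and 223 with hybridization-control scaling. Quantile and loess normalization, leaving out probe sets with shared probes, and the brightest probe set per locus gave 117 to 123. At 3-fold the role groups kept 1 member each for cell wall, gene expression, metabolism, secretory pathway, transport and no role given, 2 for other domain families, and 0 for protein folding and for signalling. The members' median log2 ratio of 1.19 went to 0.99 with hybridization-control scaling, 1.06 with a pseudocount, and 1.20 to 1.26 with the other scalings. For the 12 highest genes, all 60 values under these alternatives moved by less than 0.44, the SD of a single ratio. Median centring and hybridization-control scaling shift every log2 ratio by the same amount, so their values are no separate result for each gene. That SD comes from differences between probe sets and does not measure dependence on the scaling.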
